A study of Mus musculus with 6 samples.

Results

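The 10 genes described here, Spry1, Spry2, Spry4, Spred1, Spred2, Spred3, Etv1, Etv4, Etv5 and Phlda1, are genes whose transcription follows ERK signalling or whose proteins restrain it. They were picked out by gene name, by a rule that uses no measured value but was set with earlier results of these data known, and each name had 1 row among the 34745 gene rows of the table. RNA was sequenced from MLE-12 cells, a mouse lung epithelial cell line made from lung tumours that expressed the SV40 large T antigen. A total of 3 libraries came from cells transfected with NR4A1 overexpression plasmids, in which the mouse Nr4a1 open reading frame is carried by pCMV-SPORT6, and 3 from cells that received the pCMV-SPORT6 vector alone (vector control). Lipofectamine was used for both groups, so that the controls also went through transfection. The plasmid was introduced transiently, the share of cells that took it up was not measured in these libraries, and the labels do not say whether the replicates were separate cultures, so the p-values below measure the spread between these libraries only.

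Library totals ran from 15019038 to 17574340 counts, at which 3 counts correspond to between 0.171 and 0.200 CPM, the count of a gene scaled to a fixed library total, a limit that covers counting error only. Nr4a1 itself had 50660 to 68555 counts in the NR4A1 overexpression group and 428 to 510 counts in the vector controls. NR4A1 overexpression replicate 2 stood apart from the other libraries on the first principal component, where it scored 57.4 and the others from -20.8 to 2.24, and values of the 10 genes that rest on it are given with and without it. Of 9 lung epithelial markers, Krt8, Krt19, Nkx2-1, Sftpc, Sftpb and Cdh1 were counted at least 189 times in every library, whereas Krt18 was counted between 2 and 164 times, Epcam at most 22 times and Cldn4 at most 1 time. Of 8 fibroblast markers, Dcn was counted between 14138 and 17269 times in every library and Lum between 48 and 75 times. The lowest counts over the libraries were 84 for Col1a1, 12 for Pdgfra, 10 for Col1a2 and Col3a1, and 0 for Thy1 and Dpt.

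ERK is the last kinase of the cascade that runs from receptor tyrosine kinases through Ras, Raf and Mek. Active ERK raises the transcription of its own inhibitors, among them the Sprouty proteins, which act between the receptor and Raf, and the Spred proteins, which bring the Ras inactivator neurofibromin to the membrane. Etv1, Etv4 and Etv5 form the PEA3 group of ETS transcription factors, which act downstream of FGF receptors, and in the developing lung FGF signalling, Etv4, Etv5 and the Sproutys together shape branching. Phlda1 is a pleckstrin homology-like protein whose transcription rises with growth factor signalling. The level of these messenger RNAs is therefore often read as the output of ERK. In the study the phosphorylation of ERK was examined in the same cell line under NR4A1 overexpression, and the comparison below addresses how these transcripts stood in the same 2 groups.

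The stretches in front of the genes are shown first for the 3 genes on which the results turn. Spry1 and Spry2 are a pair of related inhibitors with unlike behaviour over the libraries, and Etv5 had the smallest p-value. The bases lie before the RefSeq start site, outside the gene as deposited, and are given 5′ to 3′ on the strand of the gene (GRCm38.p6), without capitals because none of the motifs searched occurs in them.
Spry1, chr3:37639697-37639946, plus strand: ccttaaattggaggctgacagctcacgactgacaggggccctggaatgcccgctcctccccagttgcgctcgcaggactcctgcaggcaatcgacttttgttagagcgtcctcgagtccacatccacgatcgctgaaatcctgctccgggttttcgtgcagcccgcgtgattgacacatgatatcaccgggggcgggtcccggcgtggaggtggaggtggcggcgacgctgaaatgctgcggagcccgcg
Spry2, chr14:105896820-105897069, minus strand: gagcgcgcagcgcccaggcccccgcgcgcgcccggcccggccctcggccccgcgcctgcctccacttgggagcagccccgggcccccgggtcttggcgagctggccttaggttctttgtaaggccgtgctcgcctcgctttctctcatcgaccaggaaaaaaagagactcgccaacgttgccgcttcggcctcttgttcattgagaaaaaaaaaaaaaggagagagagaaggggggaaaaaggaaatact
Etv5, chr16:22439720-22439820, minus strand: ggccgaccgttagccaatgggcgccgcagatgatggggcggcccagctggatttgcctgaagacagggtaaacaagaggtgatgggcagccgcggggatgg

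The 250 bases before the start site held 62.4% G or C and 23 CG dinucleotides in both Spry1 and Spry2, and 71.2% and 27 at the outer of the 2 RefSeq starts of Etv5 and 62.0% and 18 at the inner one, against a median of 52.4% G or C over all RefSeq promoters. Spred1 had 70.8% G or C, Spred2 56.0% and Spred3 55.6%. Etv1 was below that median at its RefSeq starts, with 46.4% and 44.4%. RefSeq promoters, 250 bases before to 50 bases after a start site, were held for 7 of the 10 genes, 9 promoters in all, and not for Spry4, Etv4 and Phlda1. Both strands were searched for the NR4A monomer element AAAGGTCA, the ETS element CCGGAAGT, the Cic elements TGAATGAA and TGAATGGA, the cyclic AMP response element TGACGTCA, the AP-1 element TGAGTCA and the serum response element core CCATATTAG, none of which contains another. The NR4A element was found in 0 of the 9 promoters and in 1.51% of all 32851 promoters, and the ETS element in 0 of the 9 and in 3.89% of all. The only match was a Cic element in Spred3, 10 bases before the start site, where 1.30% of all promoters hold this element. Cic is the repressor that ERK relieves at the PEA3 genes. The stretch, which lies inside the gene as deposited, is shown because it holds this match, with the element in capitals.
Spred3, chr7:29168639-29168668, minus strand: cttgatttttgTGAATGAAatgctccttgt
The shares of all promoters were 1.21% for the other Cic element searched, 1.79% for the cyclic AMP response element, 5.20% for the AP-1 element and 0.103% for the serum response element core. A match is a description of letters, and the lack of one says only that these letters are not in the window.

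Levels between genes were compared as FPKM, which the authors scaled by gene length. Phlda1 had the highest level, with a median of 22.9 FPKM over the 6 libraries, followed by Spred1 with 14.8, Spry2 with 11.8, Spred2 with 7.31, Etv5 with 5.25, Spry1 with 5.24, Spred3 with 3.64, Etv4 with 2.54, Etv1 with 1.07 and Spry4 with 0.0888. The ranges over the libraries overlapped between the neighbours Spred1 and Spry2, Etv5 and Spry1, Spry1 and Spred3, and Etv1 and Spry4, so the order within these pairs is not separated by the data. The other neighbours did not overlap. Spry1, with 0.120 to 7.19 FPKM, also overlapped Spred2, Etv4, Etv1 and Spry4, so its place in the order is not separated from theirs. Of the Sproutys, Spry2 was thus the one counted at a steady level in every library, with FPKM values between 10.6 and 13.1, and Spry4 was close to the counting limit in 5 of the 6 libraries.

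**Figure D1:**
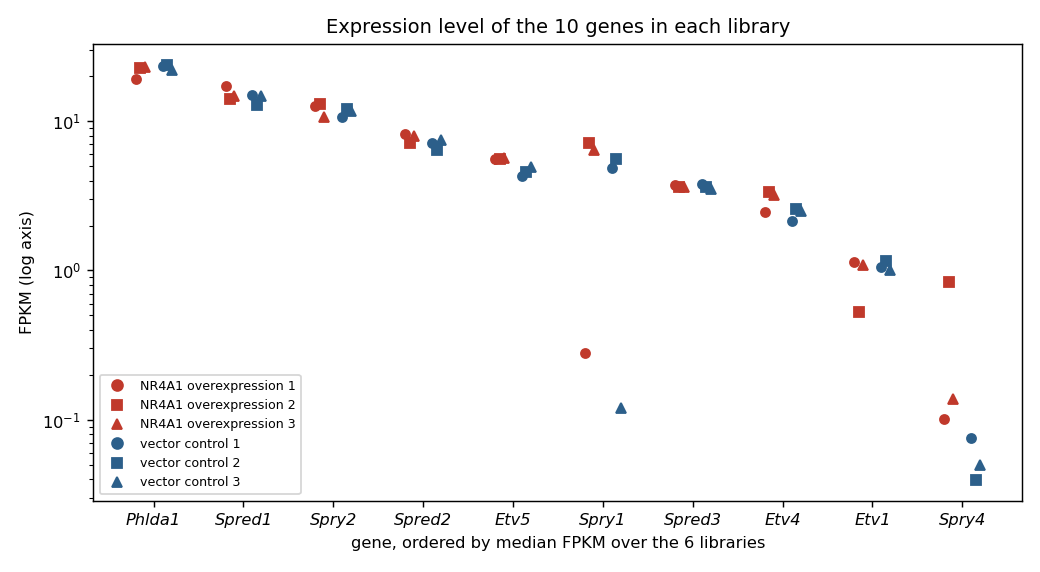
Expression level in FPKM (log axis) of each of the 10 genes in each library, with the genes ordered by their median over the 6 libraries. Colours mark the group and symbols the replicate number. Most genes form tight clusters in which the groups mix, while Spry1 has 2 libraries near the bottom of the axis, NR4A1 overexpression replicate 1 and vector control replicate 3, and Spry4 has 1 high library, NR4A1 overexpression replicate 2.

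None of the 10 genes passed the threshold, which asked for a fold of 2 or more and an adjusted p below 0.05. Over all genes, 22 of the 12941 tested (0.170%) passed it in edgeR's quasi-likelihood test, and of the 10 genes 9 were tested, because Spry4 was removed by the filter on low counts. DESeq2 and limma-voom also called 0 of the 9. At an unadjusted p under 0.05 in edgeR's test 2 of the 9 differed, Etv4 and Etv5, both higher with NR4A1, where 6.46% of all genes tested had such a p in either direction. With DESeq2 it was Etv5 alone, and with limma-voom Etv4 and Etv5. The median log2 fold change of the 9 genes was 0.13, with 7 positive and 2 negative values, against a median of 0.01 over all genes tested. For 8 of the 9 genes the 95% interval of the fold, not adjusted for the number of genes, lay within 0.556-fold and 1.60-fold, so a 2-fold difference in either direction lay outside it. Spry1 was the exception, with an interval from 0.185-fold to 9.54-fold.

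**Figure D2:**
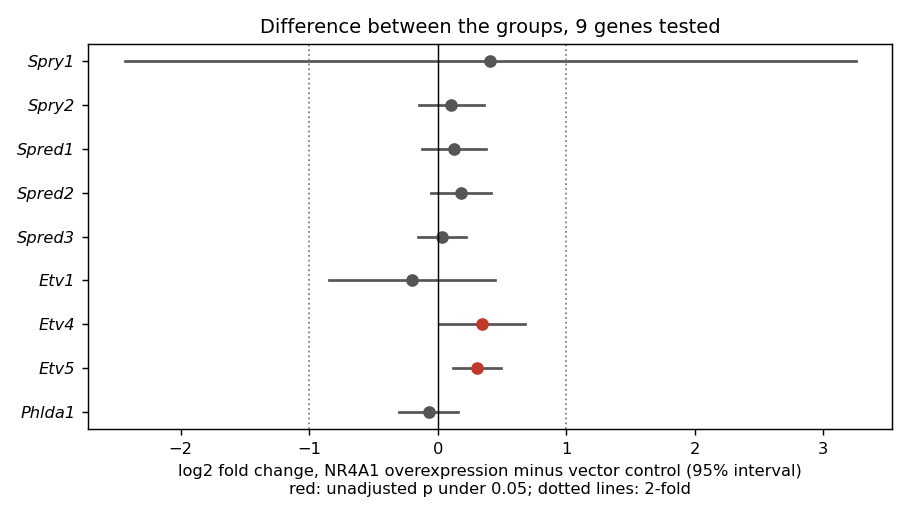
Log2 fold change of the 9 genes tested, NR4A1 overexpression minus vector control, with the 95% interval by edgeR's quasi-likelihood fit. Red points have an unadjusted p under 0.05 (Etv4 and Etv5) and dotted lines mark 2-fold. The intervals of 8 genes lie between the dotted lines, and that of Spry1 reaches past both.

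Spry1, an inhibitor of receptor tyrosine kinase signalling, was either well counted or nearly absent, and this did not follow the groups. It lies on chromosome 3 from 37639947 to 37644598 and had 14, 405 and 368 counts in replicates 1, 2 and 3 with NR4A1 and 279, 310 and 7 counts in those of the vector control. Normalized to library size with TMM factors these were 0.946, 24.1 and 21.3 CPM against 16.1, 18.5 and 0.397 CPM. One library of each group was thus low, and the 4 others were high, so that the groups overlapped. The mean was 15.4 ± 12.6 CPM with NR4A1 and 11.7 ± 9.84 CPM in the vector controls (SD, n = 3 each). The log2 difference was 0.41, with a standard error of 1.21 and, in edgeR's quasi-likelihood test, an adjusted p of 0.976. Without NR4A1 overexpression replicate 2 the value turned to -0.050 and without vector control replicate 3 to -0.16. Spata5, Nudt6 and Bbs12, the genes within 500 kb of Spry1 with a mean of at least 50 counts, were counted between 242 and 288, between 47 and 66 and between 301 and 388 times per library, and none was low in those 2 libraries. Of the 50-base stretches of Spry1 transcripts, 21.8% also occur, on the opposite strand, in Gm42922, which was counted at most 2 times in any library. The 14 and 7 counts are given as deposited. Whether they stand for less Spry1 RNA or for reads that the counting program, which the sources used here do not name, left out or placed elsewhere cannot be told from the table.

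Spry2 was counted evenly. It had 26.6, 27.6 and 22.4 CPM with NR4A1 and 22.1, 24.9 and 24.1 CPM in the vector controls. The groups overlapped, and the log2 difference was 0.11 (standard error 0.107, 95% interval -0.15 to 0.36, adjusted p = 0.921 by edgeR's quasi-likelihood fit). None of its 50-base stretches occurs in a transcript of another gene. In the 2 libraries where Spry1 was low Spry2 had 26.6 and 24.1 CPM, inside its range over the others.

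Spry4, which acts on the same pathway and is a sensitive reporter of ERK in many cells, was hardly counted in these cells. Replicates 1, 2 and 3 with NR4A1 held 7, 65 and 11 counts of it, and those of the vector control 6, 3 and 4. Each NR4A1 library was higher than each vector control (0.474, 3.87 and 0.635 CPM against 0.347, 0.179 and 0.226 CPM). Of all genes tested, which leave out Spry4, 6.69% were likewise higher in every NR4A1 library. For Spry4, 1 library held most of the counts. Fitted without the count filter, its log2 difference came to 2.69 (standard error 0.873, unadjusted p = 0.0155, adjusted p = 0.808 by edgeR's quasi-likelihood fit), and without NR4A1 overexpression replicate 2 it was 1.12 (standard error 0.706, adjusted p = 0.780 by the same fit). The adjusted p lay between 0.634 and 0.996 over the other alternatives that tested it. Counts of 3 to 11 in the other 5 libraries are close to the limit at this depth.

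Summed markers of endothelial, smooth muscle and fibroblast cells were also high in NR4A1 overexpression replicate 2. The summed level of 8 endothelial markers was 109.7 CPM there. It was 13.3 and 15.8 CPM in the other NR4A1 libraries and 14.7 to 15.4 CPM in the vector controls. Of the 8 markers, 7 were highest in NR4A1 overexpression replicate 2. Among these, 3 were at 0 in all other libraries, Cdh5, Kdr and Cldn5, counted 419, 38 and only 3 times there. The sum of 6 smooth muscle markers was 324 CPM there, with all 6 highest in it, against 1.49 and 1.68 CPM in the other NR4A1 libraries and 1.81 to 2.95 CPM in the vector controls. For 8 fibroblast markers it was 1527 CPM there, with 6 of the 8 highest in it, against 944 and 973 CPM and 918 to 1042 CPM. Dcn made up most of this sum, with 878 CPM there and 905 to 1031 CPM in the other libraries. Dcn and Lum were not highest there. Col1a1 and Col1a2 had 250 and 268 CPM there and at most 17.5 and 16.4 CPM elsewhere, both in vector control replicate 1. The sum of 6 immune markers was 5.72 CPM there, with 3 of the 6 highest in it, against 2.14 and 2.91 CPM and 2.32 to 3.58 CPM. Those 3, Lyz2, Csf1r and Cd3e, were counted only 20, 21 and 6 times there. Cd68, the largest part, had 2.62 CPM there and 3.16 CPM in vector control replicate 2. The part of these markers in the value of Spry4 was not tested. In bulk RNA, more cells of a type and more RNA per cell cannot be told apart.

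In the Spred family the groups overlapped for all 3 genes. Spred1 was the most abundant of the family, with 122.6, 100.1 and 104.1 CPM with NR4A1 and 104.9, 90.2 and 104.5 CPM in the vector controls. Its groups overlapped, and the log2 difference was 0.13 (standard error 0.106, adjusted p = 0.905 by edgeR's quasi-likelihood fit). Spred2 had 58.4, 50.8 and 56.0 CPM against 49.5, 44.3 and 51.8 CPM, where the second NR4A1 library fell below the highest vector control. Its log2 difference came to 0.18 (standard error 0.0987, 95% interval -0.051 to 0.41, adjusted p = 0.834 by the same fit). Spred3, whose protein inhibits the pathway less than its relatives, had the narrowest range of the 10 genes, from 22.3 to 24.3 CPM over all 6 libraries. The ratio of its highest to its lowest library was 1.09, and its log2 difference came to 0.03 (standard error 0.0781, adjusted p = 0.973 by the same fit).

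**Figure D3:**
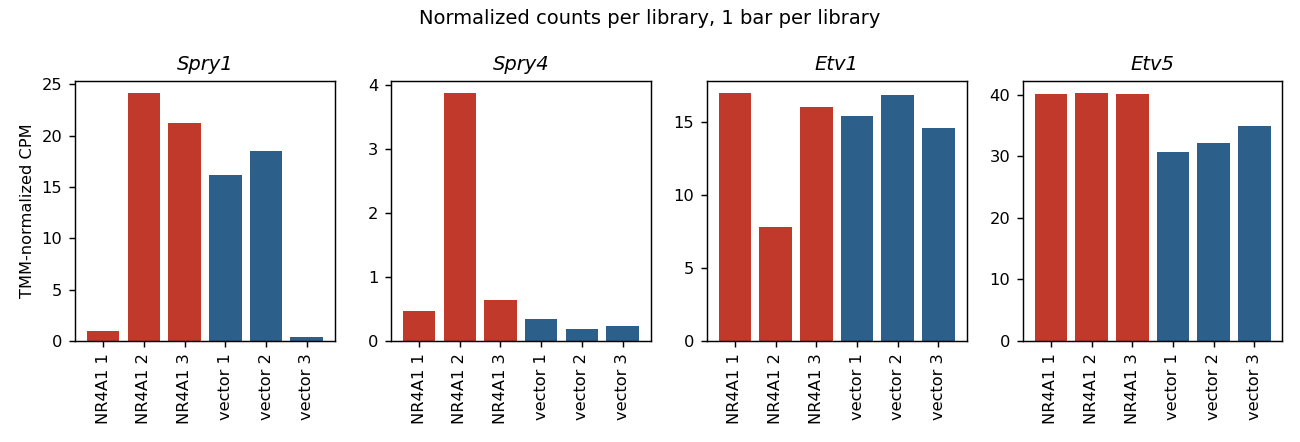
TMM-normalized CPM of Spry1, Spry4, Etv1 and Etv5, 1 bar per library, with NR4A1 overexpression in red and vector control in blue. Spry1 is near 0 in 1 library of each group, Spry4 is high and Etv1 low in NR4A1 overexpression replicate 2 alone, and the 3 NR4A1 libraries of Etv5 stand at 40.2 CPM, above all 3 vector controls.

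Etv5 had the smallest p-value of the 9 tested genes. It lies on chromosome 16 from 22381309 to 22439719 and had 594, 675 and 695 counts with NR4A1 and 529, 538 and 616 counts in the vector controls. After normalization the 3 NR4A1 libraries were nearly equal at 40.2 CPM each (mean 40.2 ± 0.0338, SD, n = 3), and the vector controls had 30.6, 32.1 and 34.9 CPM (mean 32.5 ± 2.17, SD, n = 3). At these counts the SD of the NR4A1 libraries is below counting error alone, so it does not measure how closely the level of Etv5 is held. Every NR4A1 library was above every vector control. Etv5 was the only one of the 9 tested genes without overlap between the groups, where 6.69% of all genes tested were higher in all NR4A1 libraries than in any vector control. On the log2 scale the difference was 0.30 (standard error 0.0789, 95% interval 0.12 to 0.49, unadjusted p = 0.00600, adjusted p = 0.402 by edgeR's quasi-likelihood fit), a difference that did not pass the adjustment over all genes and was below 2-fold. Over the 16 alternatives the log2 fold change stayed between 0.24 and 0.36 and the adjusted p between 0.348 and 0.933. Gm4798 shares 24.5% of its 50-base stretches. Counts of Gm4798 were not used here, and reads from these stretches cannot be told apart.

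Etv4 was also higher on average, with 15.3, 20.6 and 19.5 CPM with NR4A1 against 13.0, 15.5 and 15.1 CPM in the vector controls. NR4A1 overexpression replicate 1 lay between vector controls, so the groups overlapped. On the log2 scale the difference was 0.35 (standard error 0.142, 95% interval 0.011 to 0.68, unadjusted p = 0.0444, adjusted p = 0.752 by edgeR's quasi-likelihood fit). Over the 16 alternatives it lay between 0.23 and 0.46, with an adjusted p between 0.432 and 0.996, and when single libraries were dropped its unadjusted p stayed under 0.05 without NR4A1 overexpression replicate 1 but not without any one of the other 5. Etv1 had 17.0, 7.80 and 16.0 CPM with NR4A1 and 15.4, 16.8 and 14.6 CPM in the vector controls. NR4A1 overexpression replicate 2 was low and the 5 other libraries were alike, and the log2 difference of -0.20 (standard error 0.274, adjusted p = 0.951 by the same fit) became 0.078 without that library. Etv1 was thus low in the library in which Spry4 was high. The summed lung epithelial markers in that library, 885 CPM, lay between the 762 and 1015 CPM of the other libraries, but 482 CPM of it were Krt19. Cdh1 and Nkx2-1 were lowest of all 6 libraries there, at 26.2 and 59.8 CPM. Cdh1, Nkx2-1, Krt8 and Sftpb were lower in every NR4A1 library than in any vector control, as were 805 of the 12941 genes tested. Their adjusted p-values lay between 0.620 and 0.847 by the edgeR fit. The groups overlapped for Sftpc, Krt18, Krt19, Epcam and Cldn4. Sftpc, Krt18 and Krt19 had log2 fold changes of 0.077, 2.61 and -0.25. Sftpc and Krt18 were highest in NR4A1 overexpression replicate 2, where Sftpc had 82.7 CPM against 61.0 to 78.8 CPM elsewhere. The part of these markers in the values of the 10 genes was not tested. The 50-base stretches of Etv1 were shared, for 9.08% of them, with transcripts of 382 other genes.

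Phlda1, the most abundant of the 10 genes per length, did not pass the test either. It had 45.0, 52.8 and 53.7 CPM with NR4A1 and 53.8, 54.6 and 50.6 CPM in the vector controls. NR4A1 overexpression replicate 1 was the lowest library and the other 5 were close together. On the log2 scale the difference was -0.070 (standard error 0.0975, 95% interval -0.30 to 0.16, adjusted p = 0.952 by edgeR's quasi-likelihood fit), and it was 0.0060 without that library. Of its 50-base stretches 29.3% lie opposite Gm28592, which was counted between 5 and 12 times per library.

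Over the libraries, 6 of the 9 tested genes (66.7%) had a highest library at most 1.5-fold above the lowest, as did 64.9% of all genes tested. Spry1 had a ratio of 60.9, where 215 of the 12941 tested genes (1.66%) reached a ratio of 10 or more. The same separation of libraries, with the 4 high in Spry1 each at least 4-fold above the 2 low in it, was found in 1 other tested gene. This was Pdia2, a pancreatic protein disulfide isomerase on chromosome 17, chosen after its values were seen, with 3, 45 and 27 counts under NR4A1 and 18, 33 and 4 under the vector.

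**Figure D4:**
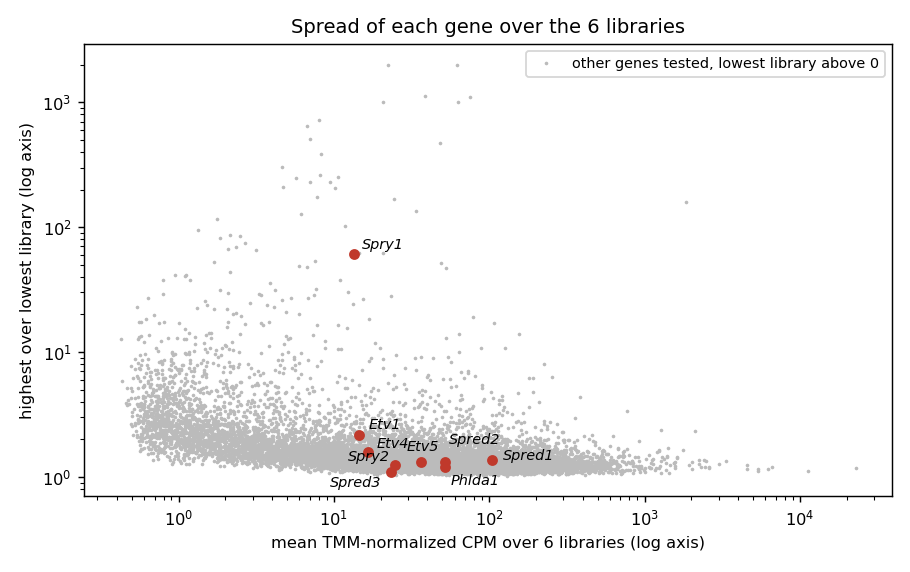
Ratio of the highest to the lowest of the 6 libraries (log axis) against mean TMM-normalized CPM (log axis) for the tested genes whose lowest library is above 0, in grey, with the 9 tested genes in red. Spry1, at 60.9, lies above most genes of similar mean, and the other 8 lie in the main cloud with ratios between 1.09 and 2.17.

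The other genes of the pathway are given from 4 hand-written lists. In the list of other ERK output, which holds Dual-specificity phosphatases and growth-related genes, 1 of 11 tested genes passed the threshold. This was Dusp4, a nuclear phosphatase of ERK, which rose from 6.93 ± 1.16 to 34.3 ± 14.5 CPM (SD, n = 3 each), a log2 difference of 2.31 (standard error 0.301 and adjusted p = 0.0457 by edgeR's quasi-likelihood fit). It also passed without NR4A1 overexpression replicate 2 (log2 fold change 1.90, adjusted p = 0.00943 by the same fit) but not without any one of the other 5 libraries, where the log2 fold change stayed between 2.19 and 2.48 and the adjusted p lay between 0.132 and 0.254. With DESeq2 its adjusted p was 1.82e-12, the lowest of all alternatives. With limma-voom it was 0.0778, and with limma on log2(FPKM + 1) and log2(FPKM + 0.1) it was 0.0814 and 0.0563. In edgeR's test it was 0.0775 with a filter at a mean of at least 10 counts and 0.160 with replicate number as a block. Dusp4 thus did not pass at these settings. Dusp5 and Dusp6, phosphatases of the nucleus and the cytoplasm, were higher in every NR4A1 library, at an unadjusted p of 0.00480 and 0.00582 and an adjusted p of 0.353 and 0.394 by the edgeR fit. Dusp5 had 6.83, 20.4 and 5.66 CPM with NR4A1 against 2.95, 2.80 and 2.38 CPM, and NR4A1 overexpression replicate 2 was thus 2.98-fold above the next library. Its log2 fold change of 2.01 became 1.20 without that library. Dusp6 had 45.5, 48.8 and 39.8 CPM with NR4A1 against 34.7, 35.1 and 34.5 CPM, a log2 fold change of 0.36, close to the 0.30 and 0.35 of Etv5 and Etv4. Fosl1, an AP-1 subunit, was not tested and was counted 202 times in NR4A1 overexpression replicate 2 and at most 7 times elsewhere. The median log2 fold change of the list was 0.13, and Egr1, Ier3, Myc, Lif, Plaur, Ccnd1, Epha2 and Epha4 had values between -0.11 and 0.31 with an unadjusted p of 0.05 or more.

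Of the ERK cascade list, from FGF receptors to ERK and its Rsk kinases, 0 of 24 tested genes passed the threshold in edgeR's quasi-likelihood test, with a median log2 fold change of 0.01. At an unadjusted p under 0.05 the Rsk kinases Rps6ka2 and Rps6ka3 were higher (log2 fold changes 1.18 and 0.71, adjusted p = 0.394 and 0.736 by the same fit) and the scaffold Ksr1 was lower (-0.20, adjusted p = 0.731). Rps6ka2 and Rps6ka3 were both highest in NR4A1 overexpression replicate 2, and without it their log2 fold changes were 0.81 and 0.41. Among the partners of Sprouty and Spred proteins, 0 of 13 passed, and Cblb, a ubiquitin ligase related to the Sprouty partner Cbl, was higher at an unadjusted p of 0.0128 (log2 fold change 0.33, adjusted p = 0.564 by the same fit). Among the regulators of Etv proteins and other ETS factors, 0 of 13 passed. The ETS factors Elk3 and Etv6 were higher at an unadjusted p of 0.00995 and 0.0442 (log2 fold changes 0.35 and 0.20, adjusted p = 0.510 and 0.751 by the same fit), while Cic had a log2 fold change of -0.10 (adjusted p = 0.901). With DESeq2, 2 genes of the 4 lists passed the threshold, Dusp4 and Dusp5, and with limma-voom 0.

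**Figure D5:**
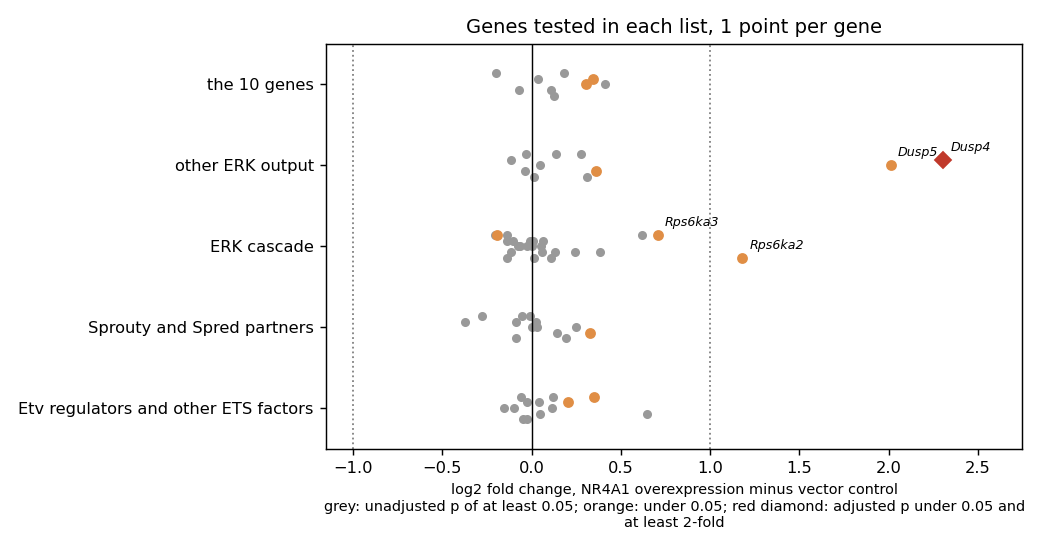
Log2 fold change, NR4A1 overexpression minus vector control, of the tested genes of each list, 1 point per gene. Grey points have an unadjusted p of at least 0.05, orange points a smaller one, and the red diamond is past the threshold. Dusp4, at 2.31, is the one gene past it, and the 9 tested genes of the top row lie between -0.20 and 0.41.

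Genes with a pattern like that of Etv5, the member with the smallest p, were sought by Pearson's r of log2 CPM over the 6 libraries. The 3 most alike were Plagl1, a zinc finger transcription factor, with r = 0.998, AI118078 with r = 0.997 and Btbd3 with r = 0.993, and 143 tested genes had an r of at least 0.9, which with 6 libraries is a description only. Like Etv5, all 3 were highest in the NR4A1 libraries and had vector control replicate 3 as the highest of the controls. This largely follows from their choice by likeness to Etv5. Btbd3 also resembled it in size, with 65.9, 65.8 and 65.7 CPM against 50.9, 51.1 and 57.6 CPM. None of the 3 passed the threshold, with adjusted p-values of 0.220, 0.221 and 0.470 by edgeR's quasi-likelihood fit.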

How the data were processed

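RNA of MLE-12 cells was sequenced, as strand-specific libraries, from 3 NR4A1 overexpression and 3 vector control libraries. The deposited counts are reads per gene and library, and the deposited FPKM values were scaled by the authors by library total and gene length. Over 10738 genes with at least 50 counts in every library, the length implied by count, FPKM and total differed between libraries by at most 0.00129%. The submitters' processing notes name HISAT2 2.0.4 and GRCm38.p4. The counting program, the annotation and the use of strand are not given in the sources used here. Coordinates are those of the deposited table. For 6 of the 10 genes they equal GENCODE M21.

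Counts were analysed with edgeR 4.0.16 in R 4.3.3 (TMM factors, filterByExpr, quasi-likelihood test, Benjamini-Hochberg adjustment over 12941 genes, no covariate), and no row lacked a gene name. DESeq2 1.42.0 and limma 3.58.1 served as alternatives. The fold threshold of 2 is that of the study's methods. The genes and lists were chosen with earlier results of these data known. All 10 genes were named. List genes were named when past the threshold, at an unadjusted p under 0.05, or when 1 library was at least 10-fold above the others and at least 1 CPM, and the 3 genes most like the member with the smallest p by Pearson's r. The others named were added after their values were seen. Motifs and the search for shared 50-base stretches (GENCODE M21 transcripts, either strand) were also chosen then. Replicates of a group differed by more than counting error (chi-square per degree of freedom between 9.82 and 44.6). The test was checked on simulated counts.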

Additional observations from a re-analysis of the deposited data

How the results depend on the processing

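At no setting did any of the 10 genes pass the threshold for fold and adjusted p, and Etv5 had an unadjusted p under 0.05 at every setting. The number of all genes past the threshold, 22, became 73 with DESeq2, 8 with a mean of at least 10 counts, 7 and 8 with limma on log2(FPKM + 1) and log2(FPKM + 0.1), and 161 with an unadjusted p and 2-fold, and lay between 3 and 28 as single libraries were dropped. The number of the genes with an unadjusted p under 0.05, which was 2, became 1 with library totals, with DESeq2 and with both FPKM scales, and lay between 1 and 3 as single libraries were dropped. The list genes past the threshold, 1 gene, became 2 with DESeq2 and 0 with limma-voom, a mean of at least 10 counts and both FPKM scales, and lay between 0 and 1 as single libraries were dropped. The median log2 fold change of the genes lay between 0.078 and 0.18 as single libraries were dropped. Spry1 turned to -0.050 without NR4A1 overexpression replicate 2 and to -0.16 without vector control replicate 3, Etv1 to 0.078 without NR4A1 overexpression replicate 2 and Phlda1 to 0.0060 without NR4A1 overexpression replicate 1. Over all single libraries dropped, these ranged from -0.16 to 0.96 for Spry1, from -0.39 to 0.078 for Etv1 and from -0.12 to 0.0060 for Phlda1. The causes were not tested.

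In the fit that took replicate number as a block, 5 genes passed the threshold, 0 of them list genes. Same-numbered libraries had deviations that correlated at -0.011, -0.046 and 0.246 across genes, where other numbers gave a mean of -0.0278. Pair 3 alone exceeded 0.1, and since the labels give no shared source the numbers were not taken to pair the samples. Under the block Spred2 joined Etv4 and Etv5 with an unadjusted p under 0.05. The values of Spry4 without NR4A1 overexpression replicate 2 were chosen after seeing the data. Depth limits Spry4, with 3 to 11 counts in 5 libraries.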

Other observations

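In the ERK cascade, Grb2, the adaptor that links receptors to Sos, also had a low library in each group, and it was picked out after its values were seen. Replicates 1, 2 and 3 held 1726, 1877 and 1003 counts with NR4A1 and 2138, 2045 and 991 counts with the vector. The low libraries were thus replicate 3 of both groups, at 57.9 and 56.1 CPM against 111.8 to 123.7 CPM in the other 4, whereas those of Spry1 were NR4A1 overexpression replicate 1 and vector control replicate 3. Nras, a Ras protein also picked out afterwards, was counted 733 times in vector control replicate 2 and between 1684 and 2389 times in the other libraries. The cause of these differences between libraries was not tested.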
